A study of Mus musculus with 6 samples.

Results

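Chemokines are small secreted proteins that form gradients along which leukocytes move, and their receptors are G protein-coupled receptors on the cells that follow them. Described here are the genes of these ligands and receptors, chosen by symbol alone from the Ccl, Cxcl, Cx3cl, Xcl, Ccr, Cxcr, Cx3cr, Xcr and Ackr families. The rule took 62 of the 55487 genes of the deposited table, 40 entries for ligands, 18 for signalling receptors and 4 for atypical receptors. They carry 59 distinct symbols, because Ccl19, Ccl21a and Ccl27 have entries on scaffolds outside the assembled chromosome sequences.

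The tissue was terminal ileum, where the small intestine ends. It was taken from C57BL/6 mice at postnatal day 9, and RNA was sequenced in 3 NEC and 3 control libraries. NEC is necrotizing enterocolitis, an inflammatory disease of the bowel of preterm infants. Per the labels, NEC was induced with gavage of hyperosmolar formula and with 10 min of hypoxia (5% O2) 3 times daily for 4 days. Lipopolysaccharide was given orally on postnatal days 6 and 7, its daily dose being 4 mg/kg. The control labels carry the same induction text, so how the controls were fed and handled is not stated, and no allele beyond the strain is given. Nothing in the labels ties each library to an animal of its own, so the p-values below rest on a spread between libraries that may be technical.

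Chemokines fall into families by the spacing of their first cysteines (CC, CXC, CX3C and XC). Inflammatory ligands, such as those of CXCR2, are switched on by NF-kB and draw neutrophils, whereas homeostatic ligands such as CXCL12 are made steadily by stromal, epithelial and lymphoid tissue and place resident cells. Atypical receptors bind chemokines without classical G protein signalling and take them up. In the small intestine, CCL25 from the epithelium and its receptor CCR9 are known for directing lymphocytes to the gut.

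Values were read as FPKM, fragment numbers divided by transcript length and library size, and 1 fragment on a transcript of 1 kb was worth 0.0536 to 0.0657 FPKM, which corresponds to 15.2 to 18.7 M fragments per library. Epithelial markers of the labelled tissue were present, with 8 of them summing to 1287 to 1711 FPKM in NEC and 1074 to 1179 in control. Control 1 stood apart with 9.12 FPKM summed over 10 neutrophil markers, against 60.8 to 67.4 in the other 5 libraries. NEC 1 stood apart with 122 FPKM over 5 smooth muscle markers, against 590 and 602 in NEC 3 and NEC 2 and 673 to 797 in control. Results that rest on these libraries are given with and without them.

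Few of the 62 entries were abundant. At 1 FPKM or more there were 16, 14 and 14 in NEC 1, 2 and 3 and 17, 18 and 19 in control 1, 2 and 3. The whole table had the same order of groups. There, 13461, 14541 and 14882 genes reached 1 FPKM in NEC and 16585, 16702 and 16290 in control. Ccl1, the scaffold entry of Ccl19 and 1 of the scaffold entries of Ccl27 were listed at 0 in all 6 libraries. Ligand FPKM summed to 47.4 to 64.9 in NEC and 78.0 to 108 in control. Cx3cl1, the membrane-bound ligand of CX3CR1, made up 9.07% to 36.7% of that sum, and without it the sum was 39.1 to 44.6 FPKM in NEC and 69.9 to 81.4 in control. The 18 signalling receptors together reached 5.04 to 5.20 FPKM in NEC and 8.75 to 12.4 in control, so neither sum overlapped between the groups.

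**Figure D1:**
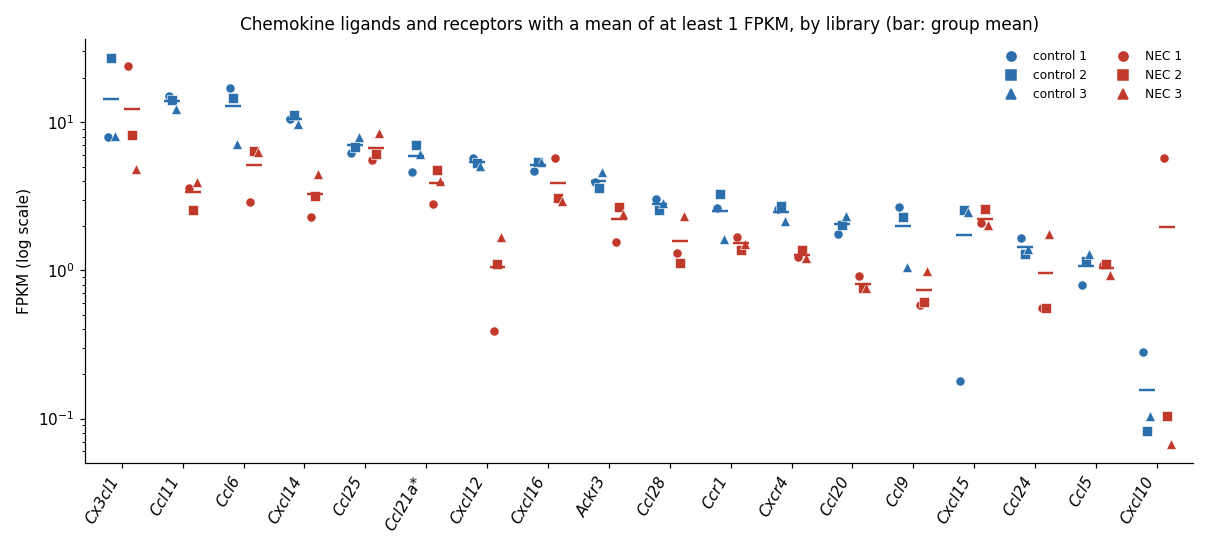
FPKM, on a log axis, of the 18 entries with a mean of at least 1 FPKM over the 6 libraries; each marker is 1 library, each bar a group mean, and the asterisk marks the Ccl21a entry on a scaffold. Ccl11, Cxcl12 and Cxcl14 have every NEC library below every control, whereas Cxcl10 is high in NEC 1 alone, at 5.74 FPKM, and Cxcl15 low in control 1 alone, at 0.181 FPKM.

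Of the 62 entries, 18 had a mean of at least 1 FPKM over the 6 libraries and were tested: 15 ligands, 2 signalling receptors and 1 atypical receptor. In NEC against control 9 were called lower, 0 higher and 9 did not pass (limma on log2(FPKM + 1), Benjamini-Hochberg adjusted p under 0.05 over all 15806 tested genes). At an unadjusted p under 0.05 there were 11 lower and 0 higher. Over all tested genes 30.6% were called lower and 7.69% higher, with a median log2 difference of -0.26 against -0.55 over the 18 entries. The 9 called entries were also the 9 whose NEC libraries all lay below all controls, where 47.3% of all tested genes had that order and 11.8% the reverse. Of the 18, 4 (Ccl20, Ccl9, Ccl24 and Cxcl10) passed the filter although 1 group mean was below 1 FPKM, and 2 of these are among the calls.

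The number of calls followed the scale. With TMM scaling, which brings the median of all genes to 0.00, 5 entries were lower (Ccl11, Cxcl12, Cxcl14, Ccl20 and Cxcr4) beside 14.2% of all genes lower and 16.7% higher, and the median of the 18 was -0.30. With quantile normalization 3 were lower (Ccl11, Cxcl12 and Cxcl14) beside 15.1% lower and 13.9% higher. Without control 1, and likewise without control 2, 4 were lower, Ccl11, Cxcl12, Cxcl14 and Ccl20 in both cases.

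Among ligands of stromal and lymphoid tissue, Cxcl12 fell furthest. It encodes the ligand of CXCR4 and ACKR3, which holds stem and immune cells in place (chromosome 6, 117168535 to 117181367, mm10). Cxcl12 was at 0.392, 1.10 and 1.68 FPKM in NEC 1, 2 and 3 and at 5.73, 5.28 and 5.10 in control 1, 2 and 3. All controls lay above all NEC libraries, and the control mean (5.37 ± 0.328, SD, n = 3) was 5.09 times the NEC mean (1.06 ± 0.643, SD, n = 3). The log2 difference was -1.68 (SE 0.23, adjusted p = 0.00646, limma, Benjamini-Hochberg). The call held in all 14 alternatives that changed a single choice and tested the gene, with adjusted p up to 0.0363. When the filter was dropped as well, the Cxcl12 call was lost without NEC 2, without any 1 control and with the replicate block.

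In such bulk RNA, fewer cells of a type and less RNA per cell cannot be told apart. Beside Cxcl12, 8 fibroblast markers summed to 101, 265 and 310 FPKM in NEC and 555 to 690 in control, and 7 of the 8 were called lower, among them Col1a1 (-1.53 on the log2 scale) and Dcn (-2.25). Over all tested genes 30.6% were called lower. With TMM scaling 4 of the 8 markers were lower, beside 14.2% of all tested genes. Without control 1 or control 2 0 were, where 1049 and 917 genes were lower over the whole table, against 4829 with all libraries. NEC 1 was the lowest library for both Cxcl12 and the fibroblast sum. The part of fibroblast content in the Cxcl12 difference was not tested.

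Other ligands of that role did not pass. Ccl21a encodes a ligand of CCR7 that brings naive lymphocytes and dendritic cells into lymphoid tissue, and most of its signal was on the scaffold entry, since the placed gene did not exceed 0.554 FPKM. That entry was at 2.79, 4.79 and 4.00 FPKM in NEC and 4.62, 7.03 and 6.14 in control, groups that overlapped (log2 difference -0.52, SE 0.20, adjusted p = 0.0809, limma). Ccl21 copies are near-identical, so the split of fragments between them is uncertain. Cxcl13, the B cell-attracting ligand of CXCR5, was at 1.28, 0.527 and 0.140 FPKM in NEC and 1.17, 0.514 and 0.751 in control. Ccl19, another ligand of CCR7, was at 0 to 0.715 FPKM in NEC and 0.219 to 0.907 in control, and Xcl1, which attracts cross-presenting dendritic cells, did not exceed 0.251.

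Of the CC ligands for monocytes, eosinophils and T cells, Ccl11 had the smallest adjusted p. It encodes eotaxin, which draws eosinophils through CCR3 (chromosome 11, 82057823 to 82062955). Ccl11 was at 3.60, 2.54 and 3.96 FPKM in NEC and at 15.0, 14.1 and 12.3 in control. Its single annotated transcript allowed whole fragments to be recovered, 66, 50 and 80 in NEC and 254, 233 and 215 in control. The groups lay far apart, with a control mean (13.8 ± 1.41, SD, n = 3) 4.10 times the NEC mean (3.37 ± 0.737, SD, n = 3). The log2 difference was -1.77 (SE 0.15, adjusted p = 0.00196, limma, Benjamini-Hochberg), -1.47 with TMM scaling, and the call held in all 15 alternatives that changed a single choice.

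Ccl6 and Ccl9 are neighbouring genes on chromosome 11 (83587882 to 83593087 and 83572919 to 83578636) whose products act on CCR1 of myeloid cells. Ccl6 was at 2.88, 6.36 and 6.25 FPKM in NEC and 17.1, 14.6 and 7.10 in control. Ccl9 was at 0.587, 0.615 and 0.998 FPKM in NEC and 2.66, 2.30 and 1.05 in control. In both genes control 3 was the lowest control and lay close to the highest NEC library. Both passed narrowly, with log2 differences of -1.16 (SE 0.37, adjusted p = 0.0479) and -0.76 (SE 0.24, adjusted p = 0.0440, limma). The Ccl6 call was lost in 14 of 15 alternatives and the Ccl9 call in 9 of 14, TMM scaling among them for both.

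Macrophage markers beside them were mixed: of 9 tested, 3 were lower (Adgre1 -0.87, C1qa -0.48 and C1qb -0.47 on the log2 scale), while with TMM scaling 1 was lower and 2 were higher. Over all tested genes 30.6% were lower and 7.69% higher, and 14.2% and 16.7% with TMM scaling. The sum of 11 macrophage markers overlapped, at 84.7 to 94.7 FPKM in NEC and 82.7 to 111 in control. Of the 11, 6 had every NEC library below every control and 1 the reverse, beside 36.3% and 6.5% of all genes above 0. The part of macrophage content in the Ccl6 and Ccl9 differences was not tested.

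The remaining genes of this role were low and overlapped. Ccl5, a T cell-attracting ligand, was at 1.08, 1.10 and 0.938 FPKM in NEC and 0.800, 1.15 and 1.29 in control (log2 difference -0.02, SE 0.13, and 0.16 with TMM scaling, not called in either). Ccl24, an eosinophil ligand, was at 0.558, 0.555 and 1.75 FPKM in NEC and 1.65, 1.28 and 1.40 in control (-0.37, SE 0.24, adjusted p = 0.246, limma), and it passed as lower only without NEC 3 (-0.65, adjusted p = 0.0152). Ccl2, Ccl7, Ccl8 and Ccl12, known for monocytes, did not exceed 0.559 FPKM in any library. Ccl17 and Ccl22, ligands of CCR4, stayed at or below 0.720 and 0.198 FPKM, and Ccl26 was above 0 only in NEC 2, at 0.195.

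Ccl3 and Ccl4 encode ligands from activated macrophages and T cells. Ccl3 gave 5, 9 and 11 fragments in NEC and 3, 5 and 4 in control. Ccl4 gave 7, 7 and 8 fragments in NEC and 4, 6 and 4 in control. Their FPKM overlapped between groups, and in a fit of all 33583 genes above 0 in any library neither was called (adjusted p = 0.168 and 0.260, limma). With quantile normalization of that fit both were called higher (adjusted p = 0.0285 and 0.0465), beside 4.7% of all genes, and with TMM scaling neither was (adjusted p = 0.0686 and 0.0971).

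Mucosal epithelial ligands split, with 3 of 6 tested lower, beside 30.6% of all tested genes. With TMM scaling 2 were lower, beside 14.2%, and with quantile normalization 1, beside 15.1%. Cxcl14, a ligand made by epithelium and stroma (chromosome 13, 56288643 to 56296551), was at 2.28, 3.16 and 4.45 FPKM in NEC and 10.5, 11.2 and 9.79 in control. The groups lay apart, the control mean (10.5 ± 0.706, SD, n = 3) being 3.18 times the NEC mean (3.30 ± 1.09, SD, n = 3). The call, with a log2 difference of -1.45 (SE 0.19, adjusted p = 0.00554, limma, Benjamini-Hochberg), held in all 15 alternatives that changed a single choice. When the filter was dropped as well, it was lost without NEC 2, control 1 or control 2 and with the replicate block.

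Ccl20 encodes the ligand of CCR6 from epithelium over lymphoid follicles (chromosome 1, 83116766 to 83119167). It was at 0.916, 0.759 and 0.762 FPKM in NEC and 1.76, 2.04 and 2.34 in control, without overlap. The log2 difference was -0.75 (SE 0.12, adjusted p = 0.00865, limma), and the call was lost with quantile normalization (adjusted p = 0.105). Ccl28, which attracts antibody-secreting cells through CCR10 (chromosome 13, 119623819 to 119654359), was at 1.31, 1.11 and 2.34 FPKM in NEC and 3.03, 2.55 and 2.84 in control. Its log2 difference of -0.58 (SE 0.19, adjusted p = 0.0473, limma) was lost in 12 of 14 alternatives.

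Ccl25, the ligand of CCR9, did not pass, at 5.59, 6.14 and 8.39 FPKM in NEC and 6.19, 6.79 and 8.01 in control (log2 difference -0.06, SE 0.16, adjusted p = 0.772, limma, and 0.24 with TMM scaling, adjusted p = 0.221). By group mean FPKM it ranked 5 among ligands in control and 2 in NEC, while Ccl11 ranked 2 in control and 6 in NEC. Cxcl16, a membrane-bound ligand of CXCR6, was at 5.70, 3.07 and 2.92 FPKM in NEC and 4.70, 5.37 and 5.42 in control. NEC 1 was the highest of the 6 libraries for Cxcl16, and without NEC 1 the gene was called lower (-0.62, adjusted p = 0.00563, limma).

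Cx3cl1 ranked 1 in both groups and had 1 high library in each, at 23.8, 8.25 and 4.85 FPKM in NEC and 8.0, 27.1 and 8.09 in control. Its log2 difference of -0.26 had an SE of 0.64 and turned to 0.06 with TMM scaling, so neither direction was shown. Ccl27a, a skin-homing ligand, was at 0.143, 0.349 and 0.324 FPKM in NEC and 0.648, 0.387 and 0.587 in control, apart but not called (adjusted p = 0.116, limma). Cxcl17, a mucosal ligand, did not exceed 0.382 FPKM, and the scaffold entry of Ccl27 that was above 0 did not exceed 0.173.

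**Figure D2:**
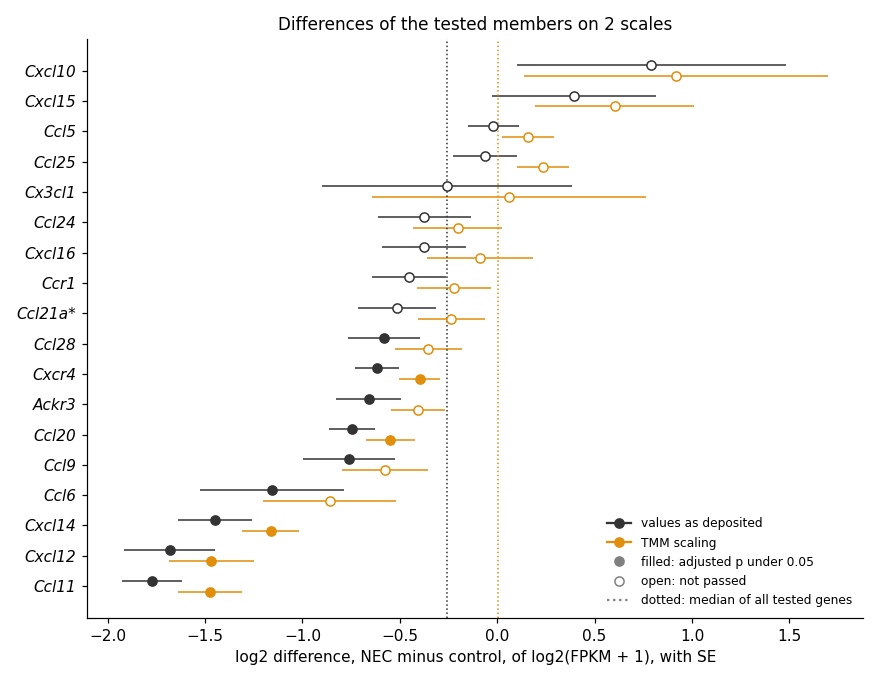
Log2 difference of NEC minus control with its SE for the 18 tested entries, on the deposited scale and with TMM scaling; filled points have an adjusted p under 0.05, and dotted lines mark the median of all tested genes, -0.26 as deposited and 0.00 with TMM scaling. Ccl11, Cxcl12, Cxcl14, Ccl20 and Cxcr4 are filled on both scales, and no point to the right of 0 is filled.

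The ligands of acute inflammation were near the floor of detection in both groups. Cxcl1, Cxcl2, Cxcl3 and Cxcl5, which carry the ELR motif and act on CXCR2 of neutrophils, did not exceed 0.469 FPKM in any library. Cxcl1 was at 0.0209, 0.117 and 0.0949 FPKM in NEC and 0.0907, 0 and 0.0874 in control. Cxcl2 was at 0.0458, 0.203 and 0.156 FPKM in NEC and 0.0869, 0.166 and 0.144 in control. The groups overlapped for both, and neither was called in the fit of all genes above 0 (adjusted p = 0.755 and 0.984, limma).

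Cxcl10 was high in a single NEC library. It encodes an interferon-induced ligand of CXCR3 and stood at 5.74 FPKM in NEC 1, 0.104 in NEC 2 and 0.0675 in NEC 3, against 0.282, 0.0827 and 0.104 in control 1, 2 and 3. NEC 1 was thus above all other libraries, and the other two NEC libraries lay within the control range or below it. The log2 difference of 0.79 had an SE of 0.69 (adjusted p = 0.385, limma), and without NEC 1 the mean fell under 1 FPKM, so the gene was not tested. Cxcl9, its neighbour on chromosome 5 and also a CXCR3 ligand, was at 0.761 FPKM in NEC 1, 0.0169 and 0.0822 in NEC 2 and 3, and 0.0947 to 0.157 in control. Cxcl11, the third of these ligands, which the annotation lists as a polymorphic pseudogene, did not exceed 0.114 FPKM. Irf1, an interferon-induced transcription factor, was also highest in NEC 1, at 18.6 FPKM against 5.42 to 8.61 in the others.

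The promoters of 4 genes are shown because they set the ligand that was high in NEC 1 beside inducible ligands near 0 in every library and the homeostatic ligand that fell. Each window holds 250 bases before and 50 bases from the RefSeq start on GRCm38.p6, read 5′ to 3′ on the gene's strand: Cxcl10 at chr5:92348840-92349139 (minus), Cxcl1 at chr5:90890995-90891294 (plus), Cxcl2 at chr5:90903649-90903948 (plus) and Cxcl12 at chr6:117168285-117168584 (plus). Capitals mark matches, on either strand, to the patterns GGNNTTTCC for NF-kB and GAAANNGAA for the interferon-stimulated response element (ISRE).
Cxcl10: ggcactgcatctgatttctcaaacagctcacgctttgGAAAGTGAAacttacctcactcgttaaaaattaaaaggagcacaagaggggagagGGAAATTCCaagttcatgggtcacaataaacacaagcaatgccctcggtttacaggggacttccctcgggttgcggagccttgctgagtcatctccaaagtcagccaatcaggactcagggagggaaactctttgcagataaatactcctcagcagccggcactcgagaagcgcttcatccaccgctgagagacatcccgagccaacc
Cxcl1: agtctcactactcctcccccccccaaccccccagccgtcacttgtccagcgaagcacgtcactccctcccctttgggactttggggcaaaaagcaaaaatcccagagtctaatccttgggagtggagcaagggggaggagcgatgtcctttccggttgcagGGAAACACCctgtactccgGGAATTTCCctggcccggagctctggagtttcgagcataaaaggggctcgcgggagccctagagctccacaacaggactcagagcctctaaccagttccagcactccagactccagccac
Cxcl2: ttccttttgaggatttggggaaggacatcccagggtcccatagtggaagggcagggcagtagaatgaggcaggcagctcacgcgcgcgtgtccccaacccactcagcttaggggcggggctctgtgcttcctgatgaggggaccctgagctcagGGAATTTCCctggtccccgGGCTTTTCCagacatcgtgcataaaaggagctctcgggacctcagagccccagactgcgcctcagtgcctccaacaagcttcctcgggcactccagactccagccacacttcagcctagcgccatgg
Cxcl12: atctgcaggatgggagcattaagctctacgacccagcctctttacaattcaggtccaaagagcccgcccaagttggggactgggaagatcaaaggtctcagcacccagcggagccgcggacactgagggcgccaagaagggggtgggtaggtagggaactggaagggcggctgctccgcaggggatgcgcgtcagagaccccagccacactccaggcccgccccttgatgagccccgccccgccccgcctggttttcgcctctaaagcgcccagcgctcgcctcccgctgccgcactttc

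Cxcl10 held 1 ISRE match, at -213 from the start, and 1 NF-kB match, at -158. Cxcl1 held 2 NF-kB matches, at -89 and -70, and Cxcl2 held 2, at -96 and -77. The Cxcl12 window held neither pattern, which says only that these letters are not in it. Other ligands called lower did hold a pattern: NF-kB in Ccl20, at -80, and Ccl9, at -35, and ISRE in Cxcl14, at -172. The windows of Ccl6 and Ccl28, also called lower, held neither. Of all 32851 RefSeq promoter windows of the same length, 5.82% held the NF-kB pattern and 8.56% the ISRE pattern. Promoters were matched for 43 of the 59 symbols, in 47 windows, of which 9 held the NF-kB pattern and 8 the ISRE pattern. A match describes letters and is not a binding site.

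Cxcl15 was low in 1 library alone. It encodes lungkine, an ELR ligand known from lung epithelium, and gave 75, 100 and 80 fragments in NEC and 6, 83 and 86 in control. That is 2.02 to 2.59 FPKM in 5 libraries and 0.181 in control 1. The log2 difference was 0.39 (SE 0.42, adjusted p = 0.478, limma), and without control 1 it was -0.13 (adjusted p = 0.523). Neutrophil markers were low in the same library: S100a8 was at 23.1 to 27.4 FPKM in 5 libraries and 1.69 in control 1, and Camp at 8.13 to 9.15 and 0.422. Of the 10 markers 6 were tested and 0 were called (limma), with 1 lower at an unadjusted p under 0.05. The part of what sets control 1 apart in the Cxcl15 level was not tested.

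**Figure D3:**
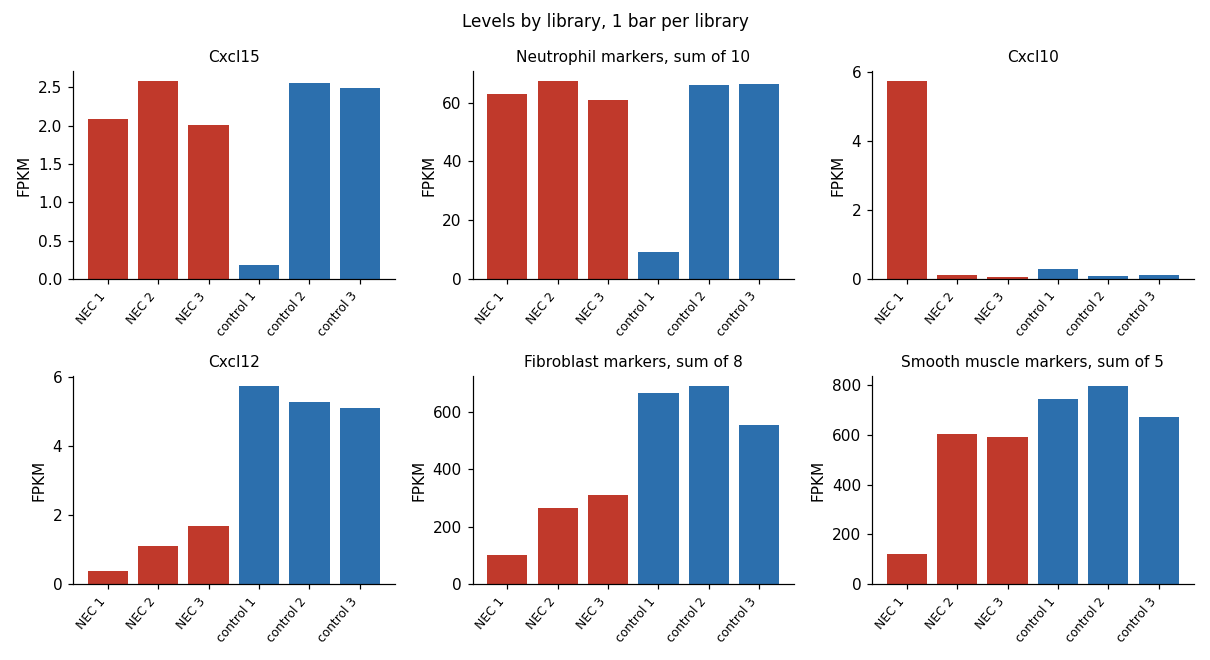
FPKM in each of the 6 libraries, 1 bar per library, of Cxcl15, the sum of 10 neutrophil markers, Cxcl10, Cxcl12, and the sums of 8 fibroblast and 5 smooth muscle markers. Cxcl15 and the neutrophil sum are low in control 1 alone (0.181 and 9.12), Cxcl10 is high in NEC 1 alone (5.74), and NEC 1 is the lowest library for Cxcl12 and for the fibroblast and smooth muscle sums.

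Of the 18 signalling receptors, 2 were abundant enough for the test. Cxcr4, the receptor of CXCL12 on leukocytes and progenitors (chromosome 1, 128588199 to 128592293), was at 1.22, 1.38 and 1.21 FPKM in NEC and 2.60, 2.72 and 2.17 in control. The groups lay apart, and the log2 difference was -0.62 (SE 0.11, adjusted p = 0.0112, limma, Benjamini-Hochberg). It was also called with TMM scaling (-0.40, adjusted p = 0.0332), but not with quantile normalization (adjusted p = 0.123) or without control 1 or control 2 (adjusted p = 0.0561 and 0.0581). Ccr1, the receptor of CCL6 and CCL9, was at 1.67, 1.38 and 1.51 FPKM in NEC and 2.64, 3.27 and 1.63 in control, groups that overlapped through control 3. It did not pass (-0.45, adjusted p = 0.0965), and it did without control 3 (-0.65, adjusted p = 0.0415).

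The other 16 receptors lay below the filter, with few fragments per library. In the fit of all genes above 0, 41 entries below the filter entered; 7 were called lower and 0 higher, beside 15.3% and 3.17% of all genes (limma, Benjamini-Hochberg), and at an unadjusted p under 0.05 there were 12 lower and 0 higher. They included Cxcr3, Cxcr6, Ccr3, Cx3cr1, Xcr1 and the atypical receptor gene Ackr1. With TMM scaling and with quantile normalization 3 were lower, Cxcr3, Cxcr6 and Ccr3 in both, beside 6.43% and 4.77% of all genes lower, and 6.25% and 4.7% higher. Without NEC 2, control 1 or control 2 only Cxcr3 was lower, beside 387, 265 and 268 genes over the whole table, against 5139 with all libraries. A log2 difference on FPKM + 1 understates the change of genes this low.

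Cxcr3, the receptor of CXCL9 and CXCL10 on activated T and NK cells, was at 0.0683, 0.0954 and 0.124 FPKM in NEC and 0.592, 0.531 and 0.535 in control. That is 2, 3 and 4 fragments against 16, 14 and 15, with no overlap (log2 difference -0.50, SE 0.05, adjusted p = 0.00912, limma). The Cxcr3 call was lost in 1 of 11 alternatives, the replicate block, and the Cxcr6 call in 5 of 11. Cxcr6, the receptor of CXCL16 on T and innate lymphoid cells, was at 0.0932, 0.174 and 0.352 FPKM in NEC and 0.942, 0.863 and 0.762 in control (-0.63, SE 0.10, adjusted p = 0.0198, limma). Beside them, 8 T cell markers summed to 1.56 to 3.72 FPKM in NEC and 2.99 to 5.12 in control. Of the 8, 7 had the lower mean in NEC. All NEC libraries lay below all controls in 3, an order that 36.3% of all genes above 0 had. These 3, Cd3e, Cd4 and Lck, were called lower in the same fit (adjusted p = 0.0476, 0.0222 and 0.0393, limma), beside 15.3% of all genes. Trac was the exception, at 1.36, 2.33 and 0.720 FPKM in NEC and 1.29, 0.567 and 0.829 in control. The part of T cell content in these differences was not tested.

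Ccr3, the eotaxin receptor of eosinophils, gave 2, 0 and 1 fragments in NEC and 22, 17 and 12 in control (log2 difference -0.39, SE 0.06, adjusted p = 0.0199, limma). The ligand Ccl11 and this receptor were thus both lower in every NEC library. The Ccr3 call was lost in 4 of 11 alternatives. Eosinophil markers were near 0 in both groups: Epx was listed at 0 in all libraries, and the sum of 4 markers did not exceed 0.184 FPKM.

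Cx3cr1, the CX3CL1 receptor of resident macrophages, was at 0.0611, 0.555 and 0.720 FPKM in NEC and 1.58, 1.50 and 1.34 in control (-0.80, SE 0.20, adjusted p = 0.0406, limma). NEC 1 held the least Cx3cr1 of all libraries and had Cx3cl1 at 23.8 FPKM. Cx3cl1 was highest in control 2, at 27.1 FPKM, where Cx3cr1 was at 1.50. Xcr1, the XCL1 receptor of cross-presenting dendritic cells, gave 0, 2 and 0 fragments in NEC and 9, 14 and 7 in control (-0.18, SE 0.04, adjusted p = 0.0386, limma). The Cx3cr1 call was lost in 8 of 11 alternatives and the Xcr1 call in 9 of 11. Dendritic cell markers had the same order of groups, with 5 summing to 1.50 to 2.67 FPKM in NEC and 3.60 to 4.66 in control. Their part was not tested.

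**Figure D4:**
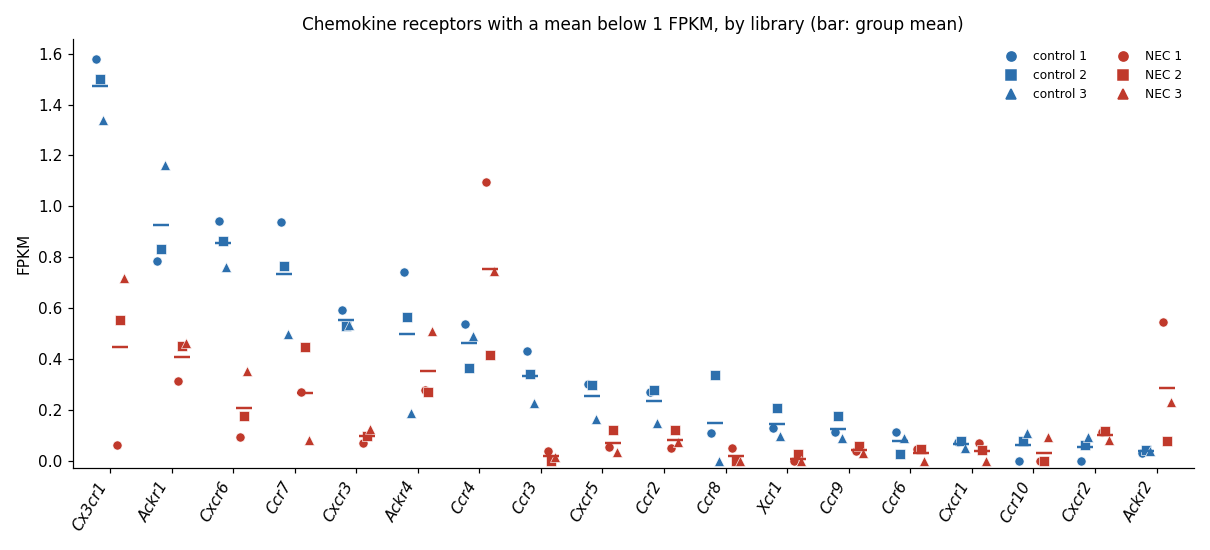
FPKM of signalling and atypical receptor genes with a mean below 1 FPKM; each marker is 1 library and each bar a group mean. The control markers of Cx3cr1, Ackr1, Cxcr6, Ccr7, Cxcr3, Ccr3, Cxcr5, Ccr2, Xcr1 and Ccr9 all lie above the NEC markers, Ackr2 has the reverse order, and the other 7 genes overlap.

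Receptors of lymphocytes and monocytes below the filter had the same order without a call. Ccr7, the receptor of CCL19 and CCL21, was at 0.269, 0.445 and 0.0813 FPKM in NEC and 0.938, 0.764 and 0.499 in control (adjusted p = 0.0786, limma). Cxcr5, the CXCL13 receptor of B cells, was at 0.0555, 0.121 and 0.0336 FPKM in NEC and 0.301, 0.298 and 0.164 in control (adjusted p = 0.0515). Ccr2 of inflammatory monocytes spanned 0.0492 to 0.122 FPKM in NEC and 0.150 to 0.278 in control, and the gut-homing receptor gene Ccr9 0.0307 to 0.0583 and 0.0898 to 0.174. Over the 18 signalling receptors, 11 had all NEC libraries below all controls and 0 the reverse, where 36.3% and 6.5% of all genes above 0 did so.

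Receptors that overlapped included Ccr4, a receptor of skin-homing and type 2 T cells, at 1.10, 0.414 and 0.746 FPKM in NEC and 0.537, 0.363 and 0.491 in control (adjusted p = 0.333, limma). Cxcr2, the neutrophil receptor of the ELR ligands, did not exceed 0.115 FPKM. Ccr6 and Ccr10, the receptors of CCL20 and CCL28, did not exceed 0.111 and 0.107 FPKM, and Ccr8, a chemokine receptor found on T cells, and Cxcr1 did not exceed 0.335 and 0.0765.

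The atypical receptors split. Ackr3, which takes up CXCL12 (chromosome 1, 90203980 to 90216751), was at 1.55, 2.70 and 2.41 FPKM in NEC and 3.93, 3.60 and 4.59 in control, without overlap. Its log2 difference was -0.66 (SE 0.17, adjusted p = 0.0248, limma), and the call was lost in 5 of 14 alternatives, among them TMM scaling (adjusted p = 0.0671) and leaving out any 1 control. Cxcl12 and both of its receptor genes were therefore lower on the deposited scale, and Cxcl12 and Cxcr4 with TMM scaling.

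Ackr1, which carries chemokines across venules, was at 0.315, 0.451 and 0.461 FPKM in NEC and 0.786, 0.834 and 1.16 in control (-0.45, SE 0.11, adjusted p = 0.0413, limma), a call lost in 10 of 11 alternatives. Of 7 blood endothelial markers 4 were lower as deposited and 1 with TMM scaling, beside 30.6% and 14.2% of all tested genes. Without control 1, 2 or 3 there were 2, 0 and 1 lower, beside 1049, 917 and 1979 genes over the whole table. The part of these markers in the Ackr1 difference was not tested. Ackr2, a scavenger of inflammatory CC ligands, was the only entry with every NEC library above every control, at 0.545, 0.0788 and 0.230 FPKM against 0.0305, 0.0418 and 0.0393. It was not called (adjusted p = 0.161, limma). Ackr4, which takes up CCL19, CCL21 and CCL25, overlapped, at 0.270 to 0.508 FPKM in NEC and 0.186 to 0.742 in control.

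Of 27 genes for signalling and migration downstream of the receptors 21 were tested: 11 were lower, 1 higher and 9 did not pass (limma), beside 30.6% lower and 7.69% higher over all tested genes. Their median log2 difference was -0.47, against -0.26 over all tested genes. With TMM scaling 6 were lower and 4 higher, beside 14.2% and 16.7% of all genes, with a median of -0.21 against 0.00. Without control 1, 2 or 3 there were 4, 3 and 5 lower and 0 higher. Over the whole table these fits gave 1049, 917 and 1979 genes lower and 499, 471 and 663 higher. Coro1a, an actin regulator of leukocytes, was at 1.59, 1.87 and 1.27 FPKM in NEC and 5.27, 3.90 and 3.44 in control (-1.0, adjusted p = 0.00903). Grk3, a kinase that desensitizes receptors (-0.86, adjusted p = 0.00591), and Rgs2, which shortens G protein signals (-1.27, adjusted p = 0.00935, limma), were lower on both scales. Gnai3, a G protein subunit, was the 1 higher gene, at 98.6 to 115 FPKM in NEC and 79.3 to 81.6 in control (0.42, adjusted p = 0.0187).

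Among 19 inducers of chemokine transcription, 11 were tested, 2 were higher, 0 lower and 9 did not pass (limma, and 2 higher and 0 lower at an unadjusted p under 0.05). Over all tested genes 7.69% were higher and 30.6% lower. Il1a, an alarmin cytokine, was at 2.87, 1.98 and 0.923 FPKM in NEC and 0.0649, 0.0665 and 0.188 in control (log2 difference 1.35, SE 0.25, adjusted p = 0.0122, limma). Il1a passed the filter only through its NEC values, since no control exceeded 0.188 FPKM. Tnfaip3, a brake on NF-kB, was at 2.73, 3.25 and 1.91 FPKM in NEC and 1.72, 1.39 and 1.20 in control (0.56, SE 0.17, adjusted p = 0.0403). Both were called with TMM scaling, where 16.7% of all tested genes were higher and 14.2% lower. Without control 1 or control 2 Il1a was not called, and without NEC 1 or NEC 2 its mean fell under 1 FPKM and it was not tested. Tnfaip3 was not called when any single library other than NEC 3 was left out. Il17a and Ifnb1 were listed at 0 in all libraries, and Tnf did not exceed 0.263 FPKM. Tlr4, the lipopolysaccharide receptor, was below the filter, at 0.638, 0.130 and 0.127 FPKM in NEC and 1.38, 0.875 and 1.83 in control (-0.87, adjusted p = 0.0436 in the fit of all genes above 0, limma).

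Of 12 genes for proteases that trim chemokines and proteoglycans that present them, 11 were tested, with 3 lower, 1 higher and 7 that did not pass, beside 30.6% lower and 7.69% higher over all tested genes. With TMM scaling 2 were lower and 3 higher, since Mmp9, a matrix protease (0.67, adjusted p = 0.00815), and Sdc1, a proteoglycan (0.64, adjusted p = 0.0306, limma), passed as higher and Ext2 no longer passed. Dpp4, which clips CXCL12 and other ligands, was the higher gene, at 36.8, 37.8 and 37.6 FPKM in NEC and 23.6, 23.3 and 24.8 in control (0.62, SE 0.08, adjusted p = 0.00527, limma, Benjamini-Hochberg). Sdc4, a heparan sulfate proteoglycan, was at 44.4, 44.0 and 56.3 FPKM in NEC and 105 to 106 in control (-1.12, adjusted p = 0.00352), and Mmp2, another matrix protease, was at 5.92, 10.4 and 13.6 in NEC and 31.5 to 37.2 in control (-1.78, adjusted p = 0.00725). Dpp4, Sdc4 and Mmp2 kept these calls with TMM scaling and quantile normalization, and Ext2, an enzyme of heparan sulfate synthesis (-0.47, adjusted p = 0.0368), kept it with neither. Of 12 chemokine-like genes outside the naming rule, 4 were tested and 2 were lower, beside 30.6% of all tested genes. The 2 were the platelet chemokine gene Pf4 (-0.62, adjusted p = 0.0301) and Rarres2, which encodes chemerin (-0.92, adjusted p = 0.0199, limma). Rarres2 also passed with TMM scaling, where 14.2% of all tested genes were lower.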

How the data were processed

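RNA-seq of 6 libraries (3 NEC, 3 control) was deposited by the authors as 1 table of values per gene; its header names no unit, and the deposited values were taken to be FPKM. The tools named in the submitters' processing notes are Cuffdiff, HISAT2 and SAMtools 1.3.1, and the build is mm10. Strandedness is not given in the sources used here. For genes with 1 annotated transcript, 98.6% to 98.8% of values under 100 fragments came out whole within 0.01 fragments, which gave the depth. That tells depth but not counts for genes with several transcripts, so no count test was run. Differences were tested with limma 3.58.1 (R 4.3.3, mean-variance trend) on log2(FPKM + 1), group only, where the mean over the libraries reached 1 FPKM, with Benjamini-Hochberg adjustment over all tested genes, after the script was tested on simulated data. Members and lists were chosen with earlier results of these data known. Members were named with their values where a group mean reached 1 FPKM or the member was called; other members named, such as Cxcl1, Ccr7 and Ackr2, and single genes of the lists were chosen after their values were seen. Alternatives varied the pseudocount (0.1, 0.01), filter (none, 5 FPKM), scaling (TMM, quantile, protein-coding genes), replicate block, sample weights and the libraries. Combinations without the filter were added after the data were seen. Promoter windows are from RefSeq (GRCm38.p6), matched by symbol. Some genes that enter the counts are not reported here.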

Additional observations from a re-analysis of the deposited data

How the results depend on the processing

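Entries called lower numbered 9, and 2 with a mean of at least 5 FPKM (where fewer genes are tested), 5 with TMM scaling, 3 with quantile normalization and 4 to 10 when 1 library was left out. Entries called higher were 0 in every alternative with the filter. Of all tested genes 4829 were lower and 1215 higher; lower genes were 1746 with a mean of at least 5 FPKM, 2252 with TMM scaling, 2387 with quantile normalization and 917 to 5378 with 1 library left out, and higher genes were 2638, 2202 and 471 to 1566 with TMM, quantile normalization and 1 library left out. Of the entries below the filter 7 were lower, and 3 with TMM scaling, 3 with quantile normalization, 0 with the replicate block and 1 to 4 with 1 library left out; 2 were higher with quantile normalization. The cause of these shifts was not tested.

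With the replicate number as a block, 7 tested entries, 3230 genes lower and 856 genes higher were called; without the filter the block left 3 genes lower and 17 higher over the whole table. Deviations of same-numbered libraries correlated at -0.05, -0.01 and -0.07, so the numbers were not taken to pair the libraries. When the filter was dropped as well, Ccl11 and Cxcr3 were the 2 entries still called without control 1, control 2 or NEC 2, and 0 of the 62 were called with the block.

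Directions that turned were all of uncalled entries. Ccl5 went from -0.02 to 0.16 with TMM scaling, 0.34 with quantile normalization, 0.018 with protein-coding scaling, 0.0094 with sample weights and -0.12 to 0.052 with 1 library left out. Ccl25 went from -0.06 to 0.24 with TMM scaling, 0.16 with quantile normalization and -0.22 to 0.041 with 1 library left out. Cx3cl1 went from -0.26 to 0.061 with TMM scaling and -0.84 to 0.29 with 1 library left out, and Cxcl15 from 0.39 to between -0.13 and 0.66. Cxcl10 had no value without NEC 1. Depth limits the entries below the filter, where Cxcr3 and Ccr3 rest on 0 to 22 fragments a library.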
